A study of Sus scrofa with 8 samples.

Results

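Of 10 genes of fat synthesis, storage and release, 6 had a spot on the arrays and are described here: FASN, SCD, DGAT2, LIPE, FABP4 and RBP4. They were chosen by symbol, as the spots whose only gene symbol in the platform annotation was one of the 10, which gave 14 of the 9984 spots and 6 of the 2922 named genes. Neighbouring spots with FABP4 as symbol occurred at 2 places, so that gene had 4 spots and each of the others 2. ACLY, ADIPOQ, PPARG and PLIN2 had no such spot and were not analysed here. All 6 symbols also occur in the pig gene tables.

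Muscle fat is made and used in steps that these genes represent. Fatty acid synthase (FASN) builds palmitate from malonyl-CoA, and stearoyl-CoA desaturase (SCD) places a double bond in the product. DGAT2 joins the last fatty acid to diacylglycerol, which gives the triglyceride of the lipid droplet. Hormone-sensitive lipase (LIPE) hydrolyses stored acylglycerols when catecholamines raise cyclic AMP. FABP4 carries fatty acids inside adipocytes, and RBP4 carries retinol in blood and is secreted by liver and adipocytes. In skeletal muscle, much of this programme is run by the adipocytes that lie between fibres, so in whole muscle RNA fewer adipocytes and less RNA per adipocyte cannot be told apart.

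The study set muscle of pigs fed a high energy diet against muscle of pigs fed a low energy diet on 8 arrays with 2 colours, 1 sample of each diet to an array. The arrays form 4 couples: low energy sample 49 with high energy sample 40, 61 with 41, 142 with 40 again, and be with ae, names that the labels do not explain. Each couple was hybridised with the high energy sample in dye 5 and, on a second array, in dye 3, numbers in the labels that are read here as Cy5 and Cy3. No label used here gives the breed, age, sex, muscle or make-up of the diets, or says that couples are separate animals, so p-values reflect only how far the couples differ, in part perhaps for technical reasons. A couple, with both of its arrays, counts as 1 replicate, and couples 1 and 3 share their high energy sample.

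A value is the log2 ratio of the channels of an array, less the array's median. The labels do not state which channel is divided by which. High over low energy was taken as the likely reading, because the design text calls the low energy samples the reference, and a second value, called turned, reverses the sign on the arrays with high energy in dye 3. The turned value is also the dye effect if the first reading holds. Had the ratio been written as low over high, every sign given here would change together. Arrays held values for 77.6% to 94.4% of the spots, and their SD was 0.341 to 0.724. That SD was widest on the dye 5 array of couple 3 and narrowest on the dye 5 array of couple 1. Pearson's r across spots was -0.043 to 0.079 between the arrays of a couple and -0.029 to 0.069 between arrays of one dye orientation. Spots of all 11 myofibre marker genes, among them ACTA1, CKM and TTN, gave values on all 8 arrays, but ratios hold no level, so the tissue label could not be checked by abundance.

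None of the 6 fat genes passed limma's test of the diets over 5025 features, and all 6 had an adjusted p of 0.996. Over all features 0% passed as well, and 3.78% (190) had an unadjusted p under 0.05, against 0 of the 6. Each of the 6 intervals of 95% confidence spanned 0. The mean lay above 0 for 3 of 6, LIPE, DGAT2 and SCD, against 46.4% of features. LIPE had the largest mean, 0.31 ± 0.38 (limma's SE, n = 4 couples), a 1.24-fold ratio, and the other 5 lay between -0.089 and 0.058. The median of the 6 was -0.015, against -0.012 over all features. For the mean of the couples, 0 of the 6 genes had 1 sign in all 4, where 16.6% of the 3640 features measured in 4 couples did, and 0 had 1 sign on all 8 arrays, where 2.25% did. On the turned reading 5 of the 6 means took the other sign, and none passed (adjusted p = 0.998 for each in limma, 0% of features called), nor had any an unadjusted p under 0.05, which 2.65% of features had.

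**Figure D1:**
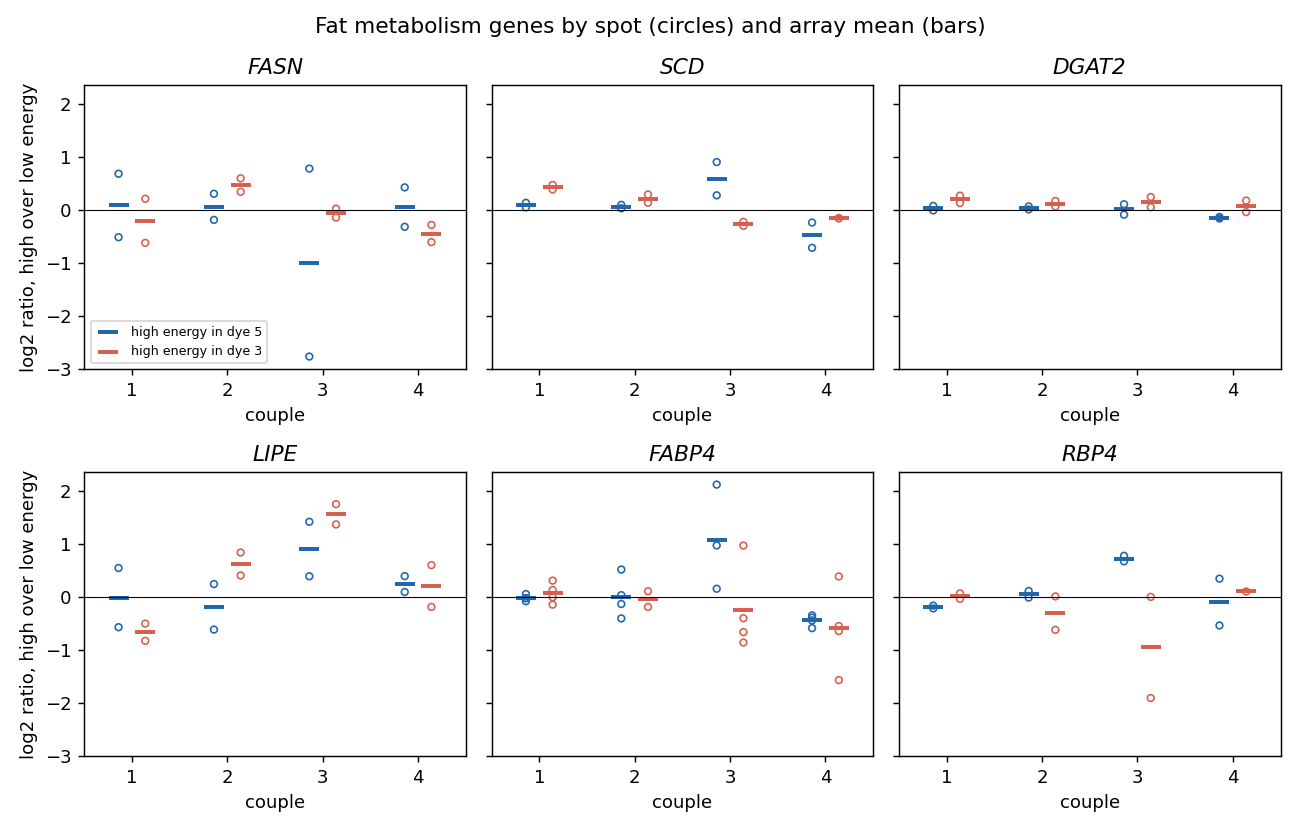
Log2 ratio of high over low energy (y axis) for the 6 genes in couples 1 to 4 (x axis). Circles are single spots and bars are the mean of the spots on an array, blue with the high energy sample in dye 5 and red with it in dye 3. DGAT2 stayed between -0.14 and 0.21 on every array, while FASN, SCD, FABP4 and RBP4 were most spread in couple 3, where LIPE was highest. The dye 5 array of couple 3 also had the widest SD over all its spots, 0.724.

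FASN, the enzyme that builds fatty acids anew, had arrays on both sides of 0. On the dye 5 arrays, with high energy in that dye, its ratios in couples 1 to 4 were 0.092, 0.067, -0.98 and 0.061. The dye 3 arrays gave -0.20, 0.48, -0.052 and -0.44. The low value of couple 3 stood far from the other dye 5 arrays, 4 arrays lay on either side of 0, and the couple means were -0.053, 0.27, -0.52 and -0.19. The mean ratio was -0.089 ± 0.17 (n = 4 couples), a 0.94-fold ratio with a 95% interval of 0.702-fold to 1.26-fold. It was 0.010 without couple 3, and -0.051 ± 0.18 turned. The value of couple 3 came from 1 spot: on that array the first spot read -2.76 and its neighbour 0.79. Across the 8 arrays the 2 FASN spots had the same sign on 2, and their separate means were -0.38 ± 0.32 and 0.21 ± 0.11.

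SCD, which makes the monounsaturated acids common in pig fat, had the pair of spots with the most shared signs among the 6 genes. Its r was the highest of the pairs measured on all 8 arrays, which leaves out RBP4 and the first FABP4 pair. DGAT2 had the smaller SD between spots. The SCD ratios on the dye 5 arrays were 0.099, 0.071, 0.60 and -0.47 in couples 1 to 4. On the dye 3 arrays they were 0.44, 0.22, -0.25 and -0.15. Couples 1 and 2 were above 0 on both arrays, couple 4 was below 0 on both, and couple 3 had 1 array on each side. The mean was 0.039 ± 0.13 (n = 4 couples), or 1.03-fold with an interval of 0.824-fold to 1.28-fold. It was 0.19 without couple 4, -0.0067 without couple 2, and -0.019 ± 0.17 turned. Both SCD spots had the same sign on 8 of 8 arrays, which held for 1.94% of the 1653 pairs of neighbouring named spots measured on all arrays, and r between the 2 spots was 0.85 against a median of 0.20 over those pairs. The spots thus repeated each other on an array, with an SD of 0.20 between spots, while the SD between the dye orientations of a couple was 0.35.

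DGAT2, the enzyme of the last step of triglyceride assembly, gave the narrowest range of arrays. The ratios read 0.041, 0.046, 0.017 and -0.14 in couples 1 to 4 in the dye 5 orientation, and 0.21, 0.12, 0.16 and 0.075 in the dye 3 orientation. They lay above 0 on 7 of 8 arrays, and in every couple the dye 3 array read higher than the dye 5 array. The mean was 0.058 ± 0.083 (n = 4 couples), a 1.04-fold ratio, with an interval of 0.901-fold to 1.20-fold. It was 0.097 without couple 4 and -0.017 on the dye 5 arrays alone. On the turned reading DGAT2 had a mean of -0.075 ± 0.081 and was the 1 gene of the 6 below 0 in all 4 couples, where 14.7% of features had 1 turned sign in 4 couples.

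LIPE, the lipase that releases stored fat under adrenergic control, had the highest SD between couples of the 6 genes, 0.65. Couples 1 to 4 gave dye 5 ratios of -0.0095, -0.18, 0.91 and 0.25. Their dye 3 ratios were -0.66, 0.62, 1.56 and 0.21. Couple 3 was high on both arrays and at all 4 spot readings, which ran from 0.39 to 1.75, and couple 1 was below 0 on both arrays. Couples 1 and 3 share the high energy sample and differ in the low energy one, and their means were -0.34 and 1.23. The mean of 0.31 ± 0.38 (n = 4 couples) had an interval of 0.646-fold to 2.39-fold, the widest of the 6 genes. It was 0.56 without couple 1, 0.037 without couple 3, and -0.12 ± 0.19 turned. Larger in size than that of 92.4% of features, the ratio had an SE also above that of most, at the 98th percentile.

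FABP4, the fatty acid carrier of adipocytes, had couples on both sides of 0. For couples 1 to 4 the dye 5 arrays read -0.015, 0.0064, 1.08 and -0.44. The dye 3 arrays read 0.075, -0.038, -0.24 and -0.59. The means of couples 1 and 2 lay near 0, couple 4 was below 0 on both arrays, and couple 3 was split between its arrays. The mean was -0.068 ± 0.18 (n = 4 couples), with an interval of 0.699-fold to 1.30-fold. It was 0.12 without couple 4 and 0.15 ± 0.19 turned. Of its 4 spots, 3 had the 3 couples needed for a test on their own, and they gave 0.034 ± 0.36, -0.15 ± 0.29 and 0.036 ± 0.098. On the dye 5 array of couple 2 the 4 spots read -0.13, -0.40, 0.52 and 0.037. Spots 1 and 2 had the same sign on 4 of 6 arrays, and spots 3 and 4 on 4 of 8 (r = -0.30).

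RBP4, the retinol carrier, had couple means that were close together and arrays that were not. Dye 5 ratios were -0.19, 0.053, 0.73 and -0.094 in couples 1 to 4. Dye 3 ratios were 0.018, -0.30, -0.95 and 0.11. The signs of the 2 arrays differed in every couple, and those of couple 3 lay farthest apart. The couple means were -0.085, -0.12, -0.11 and 0.0062. The mean ratio was -0.075 ± 0.082 (n = 4 couples), with an interval of 0.823-fold to 1.10-fold. That SE is smaller than the arrays' own spread would give, since the SD between dye orientations was 0.61 and that between couples 0.059, and the fit of all 8 arrays gave -0.079 ± 0.15. Turned, RBP4 had 0.17 ± 0.25. Its spots differed in sign as well, at 0.089 ± 0.18 over 3 couples and -0.28 ± 0.15 over 4.

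**Figure D2:**
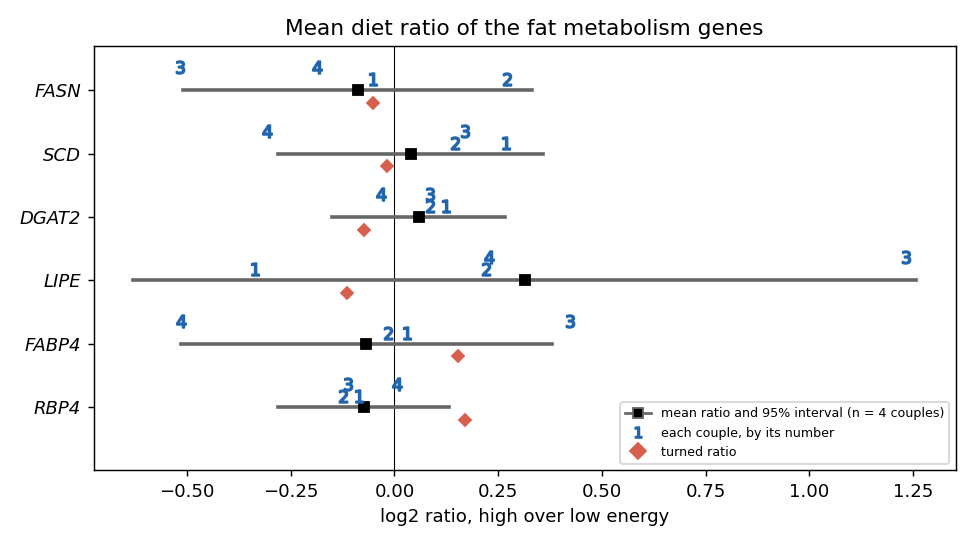
Mean log2 ratio of high over low energy for each gene (black squares) with its 95% confidence interval (grey lines, n = 4 couples), the mean of each couple by its number (blue) and the turned ratio (red diamonds). Every interval spans 0, the widest is that of LIPE at -0.63 to 1.26, and couples 1 and 3 mark its lowest and highest values.

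An exact sign-flip permutation test over the 4 couples, two-sided and with the couples taken as independent, cannot give a p under 0.125, and gave 0.25 for DGAT2 and RBP4, 0.5 for LIPE, 0.625 for FASN and SCD and 0.875 for FABP4. The intervals differ with the reading of the ratio. The upper bound for LIPE was 2.39-fold as given and 1.28-fold turned, that for DGAT2 1.20-fold and 1.09-fold, and that for SCD 1.28-fold and 1.32-fold. Turned, the intervals ran from 0.704-fold to 1.32-fold for FASN, from 0.80-fold to 1.54-fold for FABP4 and from 0.735-fold to 1.72-fold for RBP4. RBP4 and DGAT2 had SEs at the 4.3rd and 5.6th percentile of all features, SCD at the 51.6th, FASN at the 74.6th and FABP4 at the 78.4th.

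Neighbouring spots of the same gene differed about as much as named pairs of spots did in general. Over the 7 neighbouring pairs of the 6 genes the median difference on an array was 0.272, against 0.274 for all 3305 named pairs, and the signs agreed in 56.6% of 53 readings against 56.1%. The genes differed widely around that median difference, and SCD gave 8 of the 30 readings with agreeing signs. For the pairs of these genes measured on all 8 arrays, r between neighbouring spots ran from -0.54 for FASN to 0.85 for SCD. No r was taken for RBP4 and the first FABP4 pair, which lacked values on some arrays. The median r was 0.20 over the named pairs measured on all arrays. The SD between the spots of a gene on an array was 0.10 for DGAT2 and 0.20 for SCD, below the median of 0.363 over the genes tested, and 0.51 for LIPE, 0.56 for FABP4, 0.59 for RBP4 and 0.99 for FASN. Most deposited values equal the logarithm of a quotient of whole numbers, the lesser of them under 5000. The greater number of the simplest such quotient, called the recovered signal, is for those values a lower bound on a spot's brightness. It may bear on the precision of a ratio, which was not tested, and does not measure how much transcript there was. Its median was 7039 for the DGAT2 spots and 790 for SCD, against 446 over all values, and 388 for FABP4, 371.5 for FASN, 332 for LIPE and 296 for RBP4. DGAT2 readings ran up to 16483, there at a log2 ratio of 0.083, so the lesser number of some was over 5000. Only 0.85% of random values had a lesser number under 5000. For such DGAT2 readings the recovered signal is thus not shown to be a lower bound on brightness. The 2 genes with the highest recovered signal also had the lowest SD between spots. Among the other genes the SD did not follow the order of the signal, and a link was not tested.

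**Figure D3:**
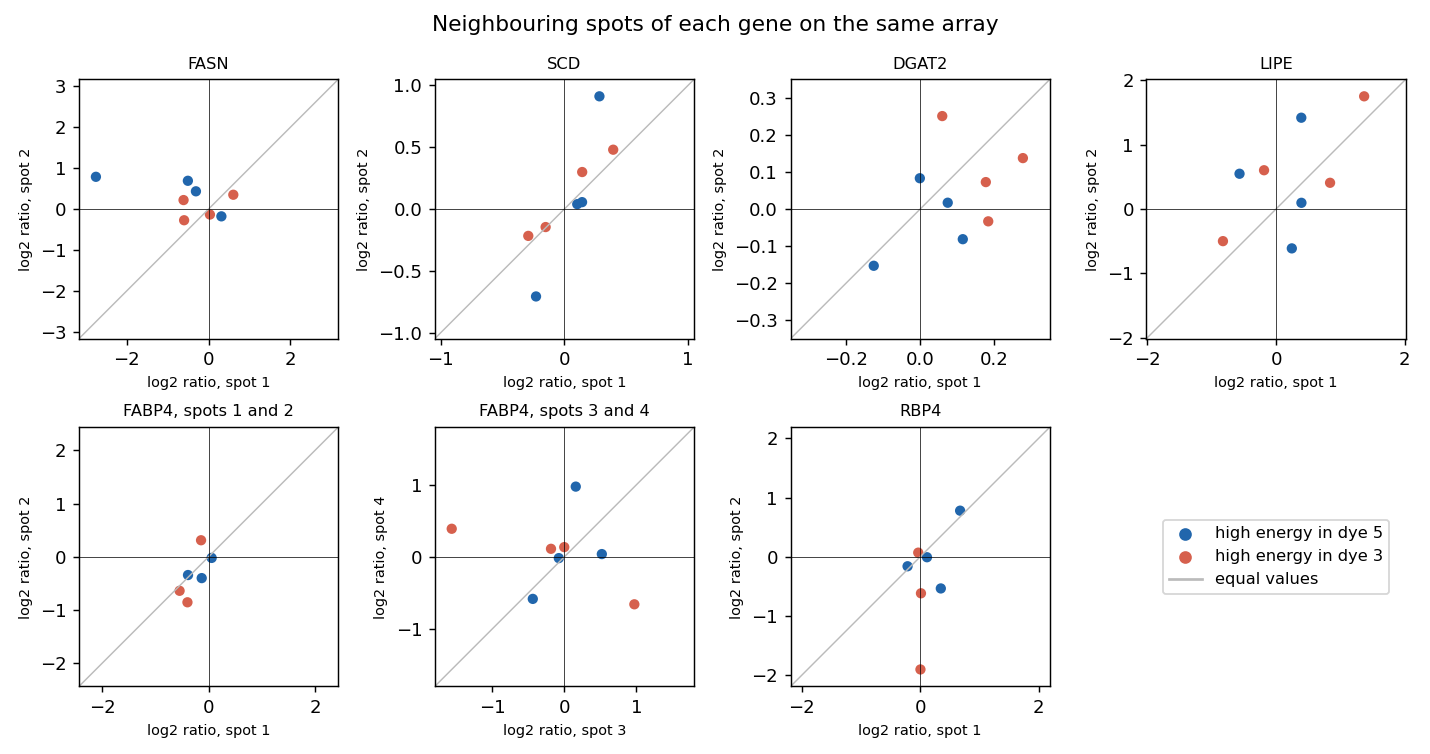
Log2 ratio of one spot (x axis) against that of the neighbouring spot of the same gene (y axis) on each array, blue with high energy in dye 5 and red with it in dye 3. The grey line marks equal values, and axis ranges differ between panels. The SCD pair had the same sign on 8 arrays, the FASN pair on 2.

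Other genes of fat metabolism were taken from 6 lists of 138 genes. Of the 35 with a spot, 30 could be tested, and none passed in either direction or had an unadjusted p under 0.05 in limma (0% and 3.78% over all features). Their mean ratios lay below 0 for 23 of 30, or 76.7%, against 53.6% of all features, with a median of -0.069 against -0.012. Turned, 15 of 30 were below 0, against 52.6% of all features. By couple the share below 0 was 55.6%, 66.7%, 60.7% and 65.4%, against 51.6%, 50.1%, 50.6% and 54.6% of features. Without couples 1 to 4 in turn, 15 of 21, 15 of 21, 13 of 20 and 12 of 22 tested genes were below 0. These sets are smaller than the 30, as a gene had to be measured in all couples that were left. No share over all features is given beside these counts, so they are not read as a skew.

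In fatty acid synthesis and desaturation, 3 of 6 tested genes lay above 0 and the median was 0.0022 (-0.034 turned). TECR, the reductase of fatty acid elongation, had -0.18 ± 0.13, and OXSM, the condensing enzyme of mitochondrial fatty acid synthesis, -0.49 ± 0.45 in 3 couples. SREBF2, the regulator of sterol synthesis, had 0.084 ± 0.15. OXSM rested on couple 3, at -1.42 against -0.083 and -0.14 in couples 1 and 2.

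In fatty acid activation and glycerolipid assembly, 1 of 6 lay above 0 and the median was -0.055 (-0.017 turned). PLPP1, a lipid phosphate phosphatase, had -0.13 ± 0.12 and the acyltransferase LCLAT1 -0.26 ± 0.31, both in 3 couples, and the turned ratio of LCLAT1 was 0.52. ACSL1, which activates fatty acids with coenzyme A, had -0.063 ± 0.088. DGAT1, which catalyses the same reaction as DGAT2, had a ratio of -0.046 ± 0.088 beside the 0.058 ± 0.083 of DGAT2.

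Among 4 droplet genes 1 lay above 0, with a median of -0.069 (-0.040 turned). FITM1, which partitions fat into droplets in muscle, had -0.15 ± 0.11 in 3 couples. G0S2, the inhibitor of adipose triglyceride lipase, had -0.075 ± 0.096, and BSCL2, which encodes seipin, -0.064 ± 0.16 in 3 couples. Of 5 lipolysis genes 1 lay above 0, with a median of -0.075. Turned, all 5 lay above 0, with a median of 0.16, where 2381 of the 5025 features tested lay above 0. NPR1, the natriuretic peptide receptor, had -0.26 ± 0.12 and was below 0 in all 4 couples, where 16.6% of the 3640 features measured in 4 couples had 1 sign. It was below 0 on 7 of 8 arrays, with an unadjusted p of 0.0791 in limma and a turned ratio of 0.11. PRKACA, a catalytic subunit of the kinase that acts on LIPE, had -0.14 ± 0.17 in 3 couples, and LPL, the lipoprotein lipase of capillaries, -0.075 ± 0.099.

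Both tested carrier genes lay below 0, FABP3, the fatty acid carrier of muscle, at -0.092 ± 0.086 and FABP5 at -0.14 ± 0.17 in 3 couples, with a turned median of 0.022. Of 7 adipocyte regulators, hormones and receptors 1 lay above 0, with a median of -0.13 (0.0051 turned). RXRB, a retinoid X receptor, had -0.26 ± 0.13 and CFD, the adipocyte product adipsin, -0.23 ± 0.13, each in 3 couples and below 0 in those 3. No share of features with 1 sign in 3 couples is given beside this. By array, RXRB lay above 0 on 1 of 7 and CFD on 3 of 7. Turned, RXRB had 0.0051 ± 0.15 and CFD -0.29 ± 0.16. NAMPT, an enzyme of NAD synthesis, had 0.14 ± 0.13, with 0.51 in couple 4 and values between -0.041 and -0.013 in couples 1 to 3.

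**Figure D4:**
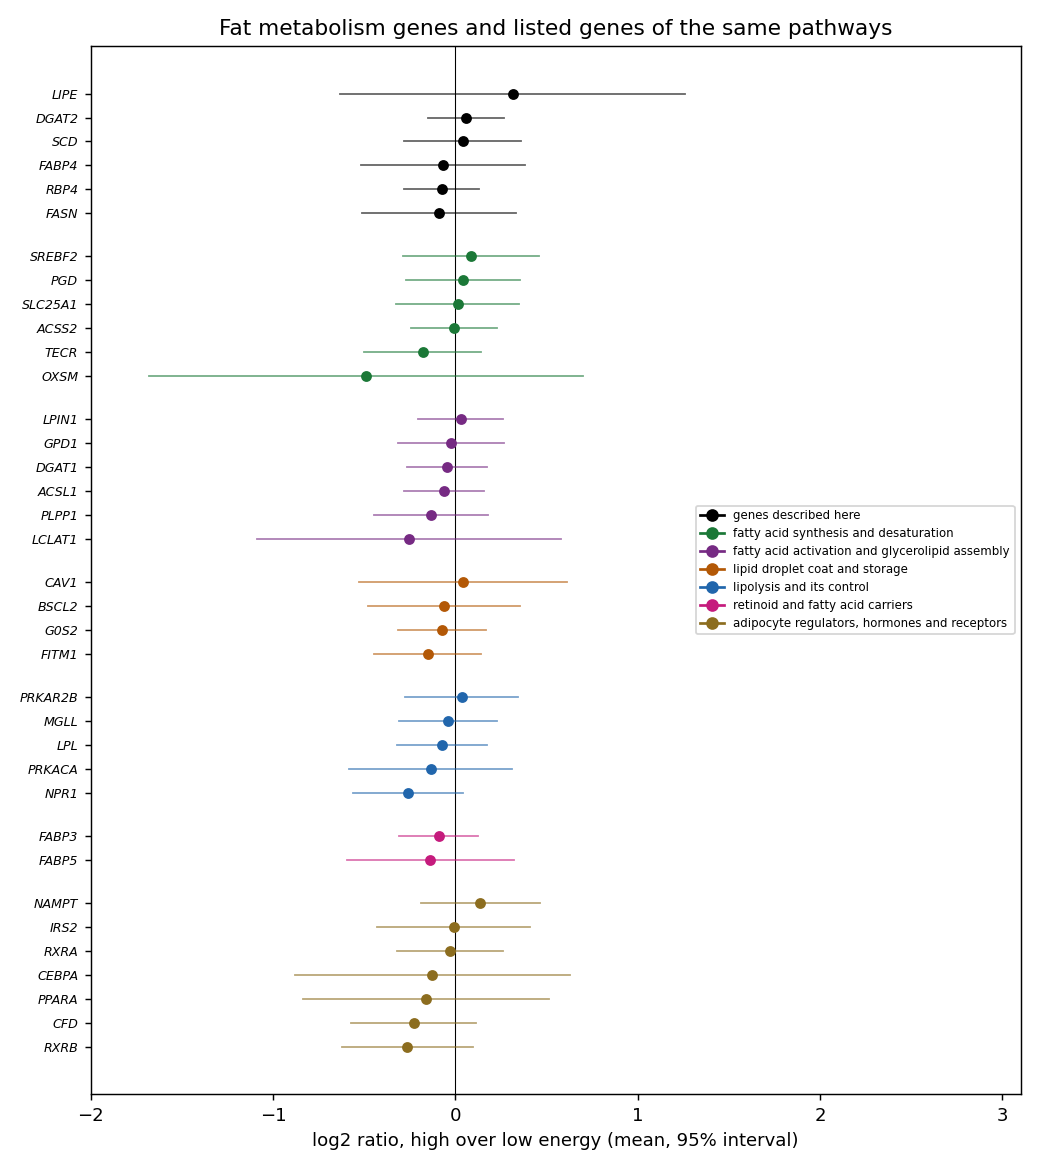
Mean log2 ratio of high over low energy with its 95% confidence interval for the 6 genes (black) and for the 30 tested genes of the 6 lists (colours, in order within each list). All intervals span 0.

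Cell type markers were read beside the fat genes. Of 7 adipocyte markers other than the genes described, 1 had a spot, CFD, so this list rests on that marker alone. Adipocyte content was not measured. CFD had couple means of -0.13, -0.063 and -0.41 in couples 1, 3 and 4, and FABP4 had 0.030, 0.42 and -0.51 in the same couples. The CFD ratio was above 0 on 3 of 7 arrays and was -0.29 ± 0.16 turned. Of the 11 myofibre markers 8 lay below 0, between -0.32 and 0.088, with a median of -0.12 (0.026 turned) and list means of -0.074, -0.070, -0.12 and -0.13 in couples 1 to 4. The 3 matrix markers measured lay between -0.20 and 0.23, the endothelial marker EMCN at 0.25, the macrophage marker C1QA at -0.34, the 3 blood markers between -0.27 and 0.038, and the hepatocyte marker APOA1 at -0.15. No marker passed the test. In limma an unadjusted p under 0.05 was found for 2 of the 11 myofibre markers, against 3.78% of features: MB, which encodes myoglobin, at -0.32 ± 0.10 (0.22 turned), and TNNT1, slow troponin T, at -0.21 ± 0.080 (-0.047 turned), which was below 0 on all 8 arrays. Both had an adjusted p of 0.996 in limma, and the 6 MB spots ran from -0.66 to 0.29. CKM, of the same list, was above 0 on all 8 arrays (0.083 ± 0.080), and TNNT3 on 6 of 8 (0.088 ± 0.10). Of the 3640 features measured in 4 couples, 2.25% had 1 sign on all 8 arrays. The part of these cells in the ratios of the fat genes was not tested.

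Across the 8 arrays, which share channels and samples within couples, the 6 genes followed no single pattern. Pearson's r between pairs ran from -0.67 for RBP4 and FASN to 0.83 for SCD and FABP4, whose Spearman's rho was also 0.83. Over the 1928 genes measured on all arrays, the pattern of FABP4 was most like those of PNPLA4, ATP5MC1 and PIAS1 (r = 0.97, 0.96 and 0.96), and that of DGAT2 most like GABARAP, SELENOO and RPL34 (0.97, 0.95 and 0.94). SCD was nearest to RIOK1, TMEM242 and UQCR11 (0.92, 0.91 and 0.91), and LIPE to DST, RALGDS and PABPC4 (0.90, 0.89 and 0.87). FASN was nearest to ZNF544, SUN2 and USP39 (0.93, 0.92 and 0.90), and RBP4 to RPL13, MFAP5 and NECTIN2 (0.94, 0.92 and 0.92). Each is the highest of many values over 8 arrays and describes these arrays only. Without the 2 arrays farthest from the median of the gene, r was 0.39, 0.11 and 0.27 for the 3 genes nearest to RBP4, 0.57, 0.39 and 0.32 for those of FASN, and 0.60, 0.58 and 0.85 for those of LIPE, so most of these likenesses rest on those arrays. It was 0.79, 0.81 and 0.73 for SCD, 0.83, 0.76 and 0.81 for DGAT2, and 0.70, 0.89 and 0.83 for FABP4.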

How the data were processed

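Members and gene lists were chosen with earlier results of these data known. The authors deposited log2 ratios of the channels of each array (per the labels, low energy in channel 1 and high energy in channel 2). The log base was inferred: raising 2 to the values gave a fraction of whole numbers (denominator at most 60) for 6.89% to 20.8% of them per array, and base 10 gave 0.36% to 2.26%. How signals were corrected, filtered and normalized is not stated in the labels.

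Each array was centred on its median. Spots with the same symbol were averaged, spots without 1 symbol were kept as features, and the arrays of a couple were averaged. The 5025 features with both orientations in at least 3 couples were tested with limma 3.58.1 (lmFit and eBayes, R 4.3.3) against 0, two-sided, with a correlation of 0.5 set between couples that share their high energy sample, so that couples 1 and 3 weigh less than the others. The threshold was a Benjamini-Hochberg adjusted p of 0.05. The fit was also run on simulated normal values with 1 common SD and the same correlation of 0.5. That run cannot show whether the correlation or a common SD holds in the data. The recovered signal is the larger number of the simplest fraction within 5.5e-10 of a value on the log2 scale. The lesser number was under 5000 for 85.9% to 97.1% of values, against 0.85% of random ones. The number of arrays limits the precision.

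Named were all members with a spot, up to 3 genes of each pathway list with the smallest p, and for each member the 3 genes with the highest r over 8 arrays. DGAT1, CKM and TNNT3 were singled out after their values were seen. Markers are given as counts and ranges, and MB and TNNT1 were named by their unadjusted p in limma. Probe, promoter and protein sequences were not used here.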

Additional observations from a re-analysis of the deposited data

Results flagged for a closer look

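Dixon's test, at a critical value of 0.829 for 4 values, marked 2 of the 18 sets of 4 that were examined (each gene over the arrays of either dye orientation and over the couple means), and about 1 in 20 is marked by chance. FASN read -0.98 in couple 3 with high energy in dye 5, against 0.061 to 0.092 on the other 3 arrays of that orientation. That array of couple 3 had the widest SD of all arrays, 0.724 over its spots. DGAT2 read -0.14 in couple 4 with high energy in dye 5, against 0.017 to 0.046 on the others.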

How the results depend on the processing

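No feature and none of the 6 genes passed the threshold under any of 17 alternatives. The smallest adjusted p of any feature was 0.0553 in the limma fit of all 8 arrays with the couple as a replicate block, which used a correlation of -0.036 within couples. It gave 0 features past the threshold and 353 of 5025 with an unadjusted p under 0.05, against 190 of 5025 in the main fit. That unadjusted count was 310 of 5025 with independent couples and 108 of 5687 on the dye 5 arrays alone. It was 99 of 3716 without couple 2 and 100 of 4195 without couple 4, where fewer features could be tested. Turned, the ratio was -0.12 for LIPE, -0.075 for DGAT2, 0.17 for RBP4, -0.019 for SCD and 0.15 for FABP4, all of the other sign. On the dye 5 arrays alone DGAT2 had -0.017, RBP4 0.096 and FABP4 0.084. Of single spots, the first of RBP4 gave 0.089, the second of FASN 0.21, and of FABP4 the first spot 0.034 and the fourth 0.036. Leaving out 1 couple, the ratio ran from -0.24 to 0.010 for FASN, from -0.0067 to 0.19 for SCD and from -0.17 to 0.12 for FABP4. The cause of these reversals was not tested. With recovered signals of at least 100 alone, RBP4 moved from -0.075 to -0.14. A recovered signal under 100 need not mean a dim spot, since it is a lower bound. In couple 4 with high energy in dye 5, the first DGAT2 spot had 12 and its neighbour 853. Couples are few, and the assumed correlation of 0.5 was not estimated from the data.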
